A study of Mus musculus with 29 samples.

Results

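The colon of C57BL6J mice was compared after 1 cycle of dextran sodium sulphate (DSS) and in untreated controls. One cycle meant 7 days of DSS in the drinking water and then 2 weeks of normal water, so that the 5 mice of this group (labelled J1, J5, K1, K2 and K3) were in recovery when sampled. The 5 control mice (A1, A2, A5, L1 and L2) drank normal water throughout. All 10 were female, of the wild-type C57BL6J strain and labelled as 6 weeks old, which the methods give as the age at the start. By the same methods, the mice of all groups were matched in age at sacrifice and thus older than the label when sampled. Members were chosen by their colitis group label alone and made up 10 of the 29 arrays of the series, which also holds 4 arrays of acute colitis (7 days of DSS with no recovery), 5 after 2 cycles, 5 after 3 cycles and 5 after 2 cycles with 3 further weeks of recovery. Each array held the total RNA of 1 mouse and no animals were pooled. The RNA came from a snap-frozen piece of the most infiltrated colon, distal according to the methods, and the exact position of each piece is not given in the sources used here. Because whole tissue was measured, more cells of a type and more RNA per cell cannot be told apart.

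DSS is a sulphated polysaccharide that injures the colonic epithelium and lets luminal bacteria reach the mucosa. Neutrophils and monocytes enter during exposure, and after its removal the epithelium closes over the wound by proliferation and migration from the remaining crypts. The epithelium also secretes antimicrobial lectins and oxidants, and interferon gamma from lymphocytes drives antigen presentation and cell-autonomous defence genes in many cell types. The comparison asks which of these programmes still differed from the untreated colon once the mice had been off DSS for 2 weeks.

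Expression was measured with whole-transcript arrays of 35511 probe sets and is given as log2 RMA values, in which a difference of 1 is a 2-fold change. Median log2 values of the 10 arrays lay between 6.03 and 6.12, and all 10 were low (7.10 to 8.14) in a probe set that splits the series into 2 sets of arrays (11.1 or above in the other set). Genes of the intestinal epithelium were well expressed in both groups. The mucin gene Muc2 lay at 13.27 to 13.46 after 1 cycle, against 12.64 to 13.42 in controls, Vil1, the brush border protein villin, at 10.42 to 10.53 after 1 cycle, against 10.31 to 10.58 in controls, and the epithelial adhesion gene Epcam at 10.59 to 10.72 after 1 cycle, against 10.63 to 10.77 in controls. The mean over 9 colon identity genes was 10.27 in K3, 10.52 to 10.61 in the other 1-cycle mice and 10.56 to 10.66 in controls. Among these genes, Hoxd13 and Hoxb13 were lower on average after 1 cycle than in controls (-1.19 and -1.16). The array of mouse K3 stood apart from the other 1-cycle arrays in genes that mark position along the gut. Hoxd13, the most posterior member of its cluster, was at 5.57 in K3 and at 7.63 to 8.45 in the other 1-cycle mice. Slc10a2, the bile acid transporter of the ileum, was at 8.25 in K3 and at 4.44 to 6.06 in the others. These position genes, and those named with them further on, were picked after their values were seen. Calls of named genes that were lost without K3 are therefore given as such.

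A probe set was called when its adjusted p was under 0.05 (limma with Benjamini-Hochberg adjustment over all 35511 probe sets) and its fold change was above 2. The fit pooled the spread between mice over all 29 arrays, those of acute colitis included. After 1 cycle, 309 probe sets were higher than in controls, 0.87% of those tested, and 66 were lower, 0.186%. The higher probe sets held 208 named genes and the lower ones 39. Another 49 of the higher and 9 of the lower probe sets had no gene listed. At an unadjusted p under 0.05 there were 2724 higher and 4175 lower. Over all probe sets the median log2 difference was -0.01. All 5 1-cycle mice lay above all 5 controls in 298 of the 309 higher probe sets, all 5 lay below all 5 controls in 43 of the 66 lower probe sets, and over the whole array 4.89% of probe sets lay wholly above and 4.35% wholly below. With single mice left out, 269 to 337 probe sets were higher. The number of lower ones moved more. It was 31 without control A1, 118 without control A2, 105 without K1 and 52 without K3, and only 29 of the 66 were among those 52.

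**Figure D1:**
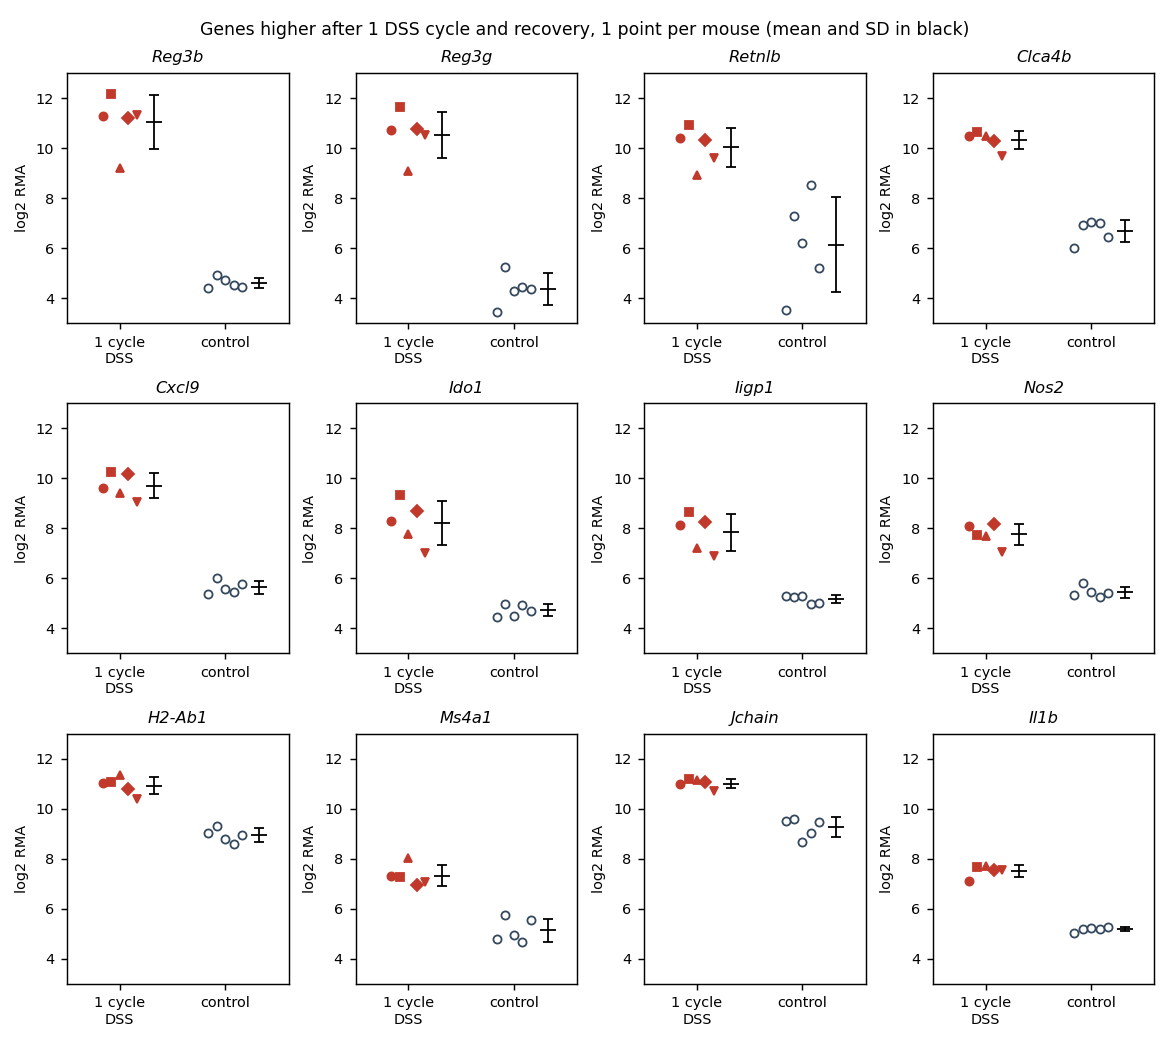
Log2 RMA expression (y axis) of 12 genes in the 5 mice after 1 DSS cycle (red, a symbol for each mouse, left) and in the 5 control mice (open, right), with the mean and SD in black. The groups do not overlap in any of the 12 genes, and Reg3b lies between 9.22 and 12.16 after 1 cycle, against 4.41 to 4.91 in controls.

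The largest differences among the called probe sets were in antimicrobial lectins of the epithelium. Reg3b and Reg3g encode C-type lectins that enterocytes secrete into the mucus and that bind bacterial cell walls. Log2 expression of Reg3b, in the order J1, J5, K1, K2, K3 and then A1, A2, A5, L1, L2, was 11.31, 12.16, 9.22, 11.21 and 11.32 after 1 cycle, against 4.41, 4.91, 4.74, 4.55 and 4.46 in controls. Reg3g gave 10.73, 11.64, 9.08, 10.76 and 10.51 after 1 cycle, against 3.45, 5.25, 4.30, 4.43 and 4.38 in controls. All 5 treated mice stood far above every control, with K1 the lowest of them in both genes. The log2 difference was 6.43 ± 0.79 (SE) for Reg3b, an 86.2-fold rise (adjusted p = 3.15e-05), and 6.18 ± 0.73 for Reg3g, a 72.5-fold rise (adjusted p = 1.92e-05). Only these 2 of the 7 Reg genes measured were called. Reg4, the member that deep crypt secretory cells of the colon express, was at 9.10 to 11.22 after 1 cycle, against 9.83 to 11.33 in controls, a difference of -0.52 (adjusted p = 0.655).

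Retnlb, a resistin-like protein that goblet cells release into the lumen, was at 10.42, 10.91, 8.92, 10.34 and 9.63 after 1 cycle, against 3.52, 7.29, 6.23, 8.51 and 5.19 in controls. The controls themselves were widely spread, with A1 the lowest and L1 the highest, and L1 lay just below K1. Its difference was 3.89 ± 0.69 (14.9-fold, adjusted p = 0.000981). Clca4b, of the family of calcium-activated chloride channel regulators, was at 10.49, 10.65, 10.48, 10.27 and 9.71 after 1 cycle, against 6.01, 6.94, 7.04, 7.01 and 6.46 in controls, a difference of 3.63 ± 0.52 (12.4-fold, adjusted p = 0.000114). Here both groups were tight and separated by more than 2 log2 units.

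Of 19 genes of secreted antimicrobial defence, 7 rose and 1 fell, with a median log2 difference of 0.79. Lcn2, which withholds iron from bacteria by binding their siderophores, was at 7.99, 8.28, 7.90, 7.57 and 8.93 after 1 cycle, against 6.13, 5.86, 6.18, 6.17 and 6.11 in controls (difference 2.04 ± 0.48, adjusted p = 0.00891). Pla2g2a, a secreted phospholipase that attacks bacterial membranes, rose by 1.92 and lay at 7.73 to 8.80 after 1 cycle, against 6.02 to 6.78 in controls. The proteins with a WAP domain moved in opposite directions. Wfdc18, Wfdc17 and Slpi rose by 2.07, 1.36 and 1.02, whereas Wfdc2 was lower, at 8.08, 7.56, 8.03, 7.67 and 7.16 after 1 cycle, against 9.17, 8.46, 9.05, 8.71 and 8.51 in controls, a difference of -1.08 (adjusted p = 0.00652). The calls of Slpi (adjusted p = 0.0488) and Wfdc2 were weak: Slpi missed the thresholds whichever of the 10 mice was left out, and Wfdc2 missed the fold threshold without K3 or A1.

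Of 9 genes of epithelial oxidant production 4 were called, all higher. Nos2, the inducible nitric oxide synthase, was at 8.09, 7.76, 7.70, 8.17 and 7.07 after 1 cycle, against 5.34, 5.81, 5.45, 5.24 and 5.42 in controls, a difference of 2.31 ± 0.44 (adjusted p = 0.00185). Duox2, which makes hydrogen peroxide at the apical surface, and Duoxa2, its maturation factor, rose by 1.06 and 1.35. Nox1, the NADPH oxidase of the colonic epithelium, rose by 1.02 and lay at 9.48 to 10.61 after 1 cycle, against 8.94 to 9.48 in controls. The groups were apart in Nos2 and Duox2 and overlapped in Duoxa2 and Nox1 through K3, the lowest of the treated mice. Nox1 missed the thresholds without A2, J1, K1 or L1, and Duox2 fell under the fold threshold without A1 or K2 and with array weights. In the oxidase of phagocytes, Cybb, its catalytic subunit, rose by 1.92 and the GTPase Rac2 by 1.39, and all 5 subunits measured lay wholly above the controls.

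Interferon-inducible genes formed a large group. Interferon gamma acts on chemokines that attract CXCR3-bearing T cells, on GTPases that attack the vacuoles of intracellular microbes, on tryptophan breakdown and on antigen presentation. Cxcl9, one of the CXCR3 ligands, was at 9.62, 10.24, 9.42, 10.20 and 9.07 after 1 cycle, against 5.37, 6.02, 5.59, 5.44 and 5.79 in controls, a difference of 4.07 ± 0.49 (16.8-fold, adjusted p = 2.58e-05). The other ligands did not pass the test. Cxcl10 differed by 1.56 (adjusted p = 0.0606), with all treated mice above all controls, and was called under 5 alternatives (adjusted p = 0.00137 in a fit of the 2 groups alone, 0.00485 with array weights, 0.0334 with the label letter as a random block, 0.0378 over probe sets with 1 symbol and 0.0399 without dim probe sets). Cxcl11 differed by 0.47 (adjusted p = 0.186). Ifng itself was dim and lay below the array medians, at 5.37, 5.53, 5.47, 5.42 and 5.33 after 1 cycle, against 4.84, 5.14, 5.14, 4.96 and 5.02 in controls. Its difference was 0.40 (adjusted p = 0.654), although the treated mice lay above the controls.

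Ido1, the first enzyme of tryptophan breakdown along the kynurenine route, was at 8.28, 9.34, 7.79, 8.69 and 7.00 after 1 cycle, against 4.46, 4.99, 4.51, 4.95 and 4.72 in controls. The difference was 3.5 ± 0.48 (11.3-fold, adjusted p = 6.71e-05), and J5 was the highest and K3 the lowest of the treated mice. Downstream enzymes Kynu and Kmo rose by 1.26 and 1.22, so that 3 of 8 genes of the pathway were called.

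Of the 5 immunity-related GTPases measured 4 rose, with a median of 1.77 over the 5. Iigp1, which coats parasite vacuoles, was at 8.15, 8.68, 7.23, 8.27 and 6.89 after 1 cycle, against 5.28, 5.25, 5.31, 5.0 and 5.04 in controls (difference 2.67 ± 0.44, adjusted p = 0.000447). The mean of the 5 genes was 6.64 to 7.73 in the 1-cycle mice, against 5.69 to 5.85 in the control mice. Gm12250, known as Irgb10, rose by 2.14, Gm4951 by 1.77 and Irgm1, the regulator of the family, by 1.16. Guanylate-binding proteins, GTPases that act on the same vacuoles, had a median of 1.08 over 8 genes. All 8 were higher on average, 7 lay wholly above the controls, and Gbp3, Gbp5 and Gbp8 were called, with differences of 1.27, 1.37 and 1.26. Their adjusted p-values were 0.0248, 0.0455 and 0.014, and all 3 calls were lost within the array set that holds all 10 mice (adjusted p = 0.0784, 0.145 and 0.0554). That of Gbp5 was also lost whichever of the 10 mice was left out, and that of Gbp3 without A1, J1 or J5.

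Among 23 genes of the type I interferon response, 8 rose, none fell and all 23 had a positive difference (median 0.69). Zbp1, a sensor of Z-form nucleic acids, was at 8.72, 8.56, 8.57, 8.64 and 7.99 after 1 cycle, against 6.77, 6.99, 6.97, 6.58 and 6.78 in controls, a difference of 1.68 ± 0.25 (adjusted p = 0.000164). Ifit1 and Ifit2, which bind foreign RNA, rose by 1.6 and 1.19. The oligoadenylate synthetase genes Oasl2, Oas2 and Oas3 rose by 1.5, 1.26 and 1.22, the negative regulator Usp18 by 1.31 and Rtp4 by 1.25.

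MHC class I presents peptides that the immunoproteasome cuts and TAP pumps into the endoplasmic reticulum. Of its 12 processing genes 3 were called, and all 12 were higher on average (median 0.49). Tap1 was at 9.21, 9.19, 9.17, 9.28 and 8.35 after 1 cycle, against 7.25, 7.37, 7.48, 7.27 and 7.46 in controls, a difference of 1.68 ± 0.30 (adjusted p = 0.00104). Psmb8 and Psmb9, catalytic subunits of the immunoproteasome, rose by 1.74 and 1.09. In all 3 genes K3 was clearly the lowest treated mouse and still lay above every control. Nlrc5, the transactivator of class I genes, is read by 19 probe sets, of which 8 were called higher and none lower. The one with the largest difference gave 8.10, 8.27, 8.23, 8.32 and 7.62 after 1 cycle, against 6.30, 6.25, 5.92, 5.85 and 6.09 in controls (2.03 ± 0.26, adjusted p = 3.81e-05), whereas the brightest differed by 0.29 (adjusted p = 0.219).

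Promoters of the genes called in these groups are shown because these genes rose together and some of them hold a short motif, the core of the interferon-stimulated response element, which IRF factors bind. The motif searched was GAAANNGAAA on both strands, from 250 bases before to 50 after the RefSeq start (GRCm38.p6). It was chosen after several motifs had been looked at. Below, 40 bases on either side of the first match are printed in the direction of the gene, with each match in capitals. A match on the opposite strand begins with TTTC, and overlapping matches run together.
Gbp3 (chr3:142559959-142560048, plus strand): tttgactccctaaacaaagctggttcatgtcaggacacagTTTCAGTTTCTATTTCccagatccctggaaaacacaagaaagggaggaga
Gbp5 (chr3:142496729-142496818, plus strand): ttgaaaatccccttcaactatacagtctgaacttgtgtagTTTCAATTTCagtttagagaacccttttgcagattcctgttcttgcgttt
Irgm1 (chr11:48871401-48871490, minus strand): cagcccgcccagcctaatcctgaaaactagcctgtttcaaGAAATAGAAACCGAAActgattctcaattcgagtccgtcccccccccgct
Gm12250 (chr11:58183712-58183801, plus strand): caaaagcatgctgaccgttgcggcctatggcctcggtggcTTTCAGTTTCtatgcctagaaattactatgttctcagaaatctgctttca
Ifit1 (chr19:34640745-34640834, plus strand): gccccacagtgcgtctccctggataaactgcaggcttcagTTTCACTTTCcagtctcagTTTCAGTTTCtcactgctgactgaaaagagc
Oas3 (chr5:120777685-120777774, minus strand): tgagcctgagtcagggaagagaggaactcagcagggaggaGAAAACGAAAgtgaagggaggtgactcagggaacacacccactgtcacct
The first match began 30 bases before the start in Irgm1, 45 in Gbp3, 75 in Oas3, 91 in Gm12250, 104 in Ifit1 and 165 in Gbp5. These 6 were among 12 called genes of the interferon groups (immunity-related GTPases, guanylate-binding proteins, type I response, CXCR3 ligands and class I processing) that had a promoter entry (50%). Among all measured genes of these groups, called or not, 20 of 33 with an entry held it (60.6%), so that the share was no higher among the called ones. Of all genes called higher, 23 of 144 with an entry held the motif (16%), against 0 of 31 called lower and 3.99% of all 27025 genes with an entry. A match is a description of these letters and does not show that a factor bound there.

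**Figure D2:**
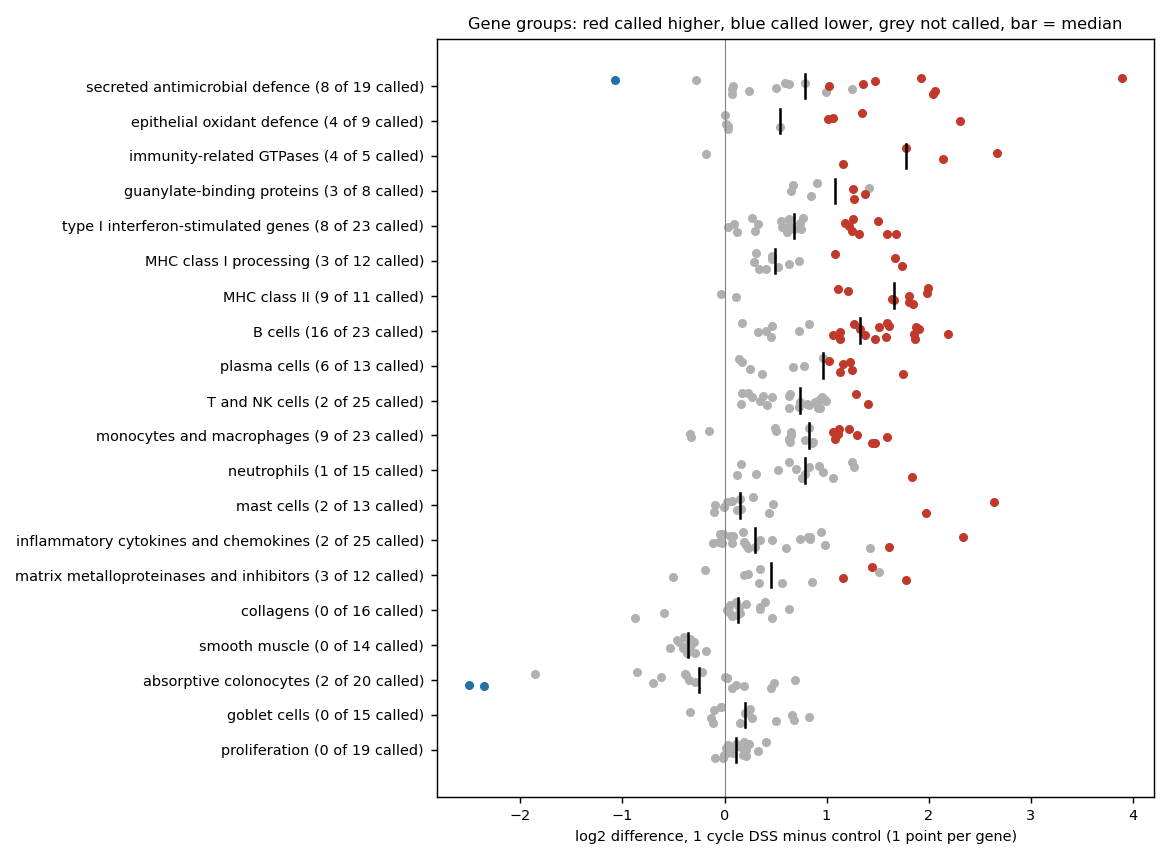
Log2 difference, 1 cycle DSS minus control (x axis), of each gene in 20 gene groups (rows, with the number called of those measured), red called higher, blue called lower, grey not called, with the group's median as a black bar. MHC class II, B cells and immunity-related GTPases have medians of 1.66, 1.33 and 1.77, whereas the 14 smooth muscle genes lie below 0 and none is called.

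MHC class II displays peptides to CD4 T cells on B cells, macrophages and dendritic cells, and interferon gamma induces it on epithelium too. Of 11 genes 9 rose (median 1.66). H2-Ab1, the beta chain of I-A, was at 11.02, 11.06, 11.33, 10.80 and 10.39 after 1 cycle, against 9.02, 9.32, 8.77, 8.58 and 8.96 in controls (difference 1.99 ± 0.28, adjusted p = 0.000106). H2-Aa and H2-Eb1, which encode the partner alpha chain and the beta chain of I-E, rose by 1.84 and 1.64, and the invariant chain Cd74 by 1.81. H2-Eb2, at 7.21 to 8.38 after 1 cycle, against 5.05 to 6.19 in controls, rose by 2.00. The peptide exchange gene H2-DMa rose by 1.66, its B cell modulators H2-Oa and H2-Ob by 1.11 and 1.81, and Ciita, the master regulator of the pathway, by 1.21. In each of the 9 the treated mice lay wholly above the controls, with K1 the highest, and without K1 H2-Oa was under the fold threshold. The protease Ctss, which trims the invariant chain, was not called at 0.11 (adjusted p = 0.809).

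The promoters of class II genes carry a Y box, an inverted CCAAT element that NF-Y binds. It is shown for 4 called genes that held CTGATTGG in the same window, in capitals.
H2-Aa (chr17:34287827-34287914, minus strand): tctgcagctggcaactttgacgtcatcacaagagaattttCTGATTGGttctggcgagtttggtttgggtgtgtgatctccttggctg
H2-Eb1 (chr17:34305765-34305852, plus strand): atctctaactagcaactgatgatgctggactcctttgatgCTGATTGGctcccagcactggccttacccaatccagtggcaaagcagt
H2-Eb2 (chr17:34325532-34325619, plus strand): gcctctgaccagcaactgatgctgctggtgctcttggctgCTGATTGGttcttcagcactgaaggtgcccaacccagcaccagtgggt
H2-Oa (chr17:34092293-34092380, plus strand): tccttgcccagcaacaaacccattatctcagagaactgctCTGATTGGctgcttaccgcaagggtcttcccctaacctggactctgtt
The match began between 46 bases (H2-Oa) and 103 bases (H2-Eb2) before the start, and 51 and 62 bases before it in H2-Aa and H2-Eb1. These were 4 of the 6 called class II genes with a promoter entry (66.7%). Among all measured class II genes, called or not, 4 of 7 with an entry held it (57.1%), so the motif is shown as a trait of the class. The share was 6.94% among all genes called higher (10 of 144), 12.9% among those called lower (4 of 31) and 4.7% among all genes with an entry.

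B cell genes were the group with the most calls. Of 23 genes 16 rose, none fell, all 23 differences were positive and the median was 1.33. Ms4a1, which encodes the surface antigen CD20, was at 7.32, 7.26, 8.05, 6.94 and 7.06 after 1 cycle, against 4.79, 5.73, 4.94, 4.67 and 5.53 in controls, a difference of 2.19 ± 0.46 (4.57-fold, adjusted p = 0.0041). Cd79b, a signalling chain of the B cell receptor, was at 8.97, 8.66, 9.38, 8.69 and 8.47 after 1 cycle, against 6.85, 7.49, 6.56, 6.30 and 7.6 in controls (1.87 ± 0.36, adjusted p = 0.00183), and its partner Cd79a rose by 1.86. K1 was the highest mouse in all 3, and among the controls A2 and L2 were the highest. Cr2, the complement receptor of mature and follicular B cells, rose by 1.91 and Cxcr5, the receptor that takes B cells into follicles, by 1.27. Cxcl13, the ligand of Cxcr5, was at 10.64, 10.49, 10.79, 10.32 and 10.17 after 1 cycle, against 8.53, 8.91, 8.44, 8.10 and 8.97 in controls, a difference of 1.89 ± 0.33 (adjusted p = 0.000772). It and Ccr6 (1.10) were the called genes among 13 that organise lymphoid follicles, and 4 of the 13 were called without K3. Ccl19, which draws T cells into lymphoid tissue, has 5 probe sets: 3 rose by 1.02 to 1.05, and the others stayed under the fold threshold at 0.88 and 0.98. Lymphoid follicles are a normal part of the colon, and whether a follicle lay in the piece taken was not tested.

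Plasma cells secrete the IgA of the gut. Of their 13 genes 6 rose and all 13 were higher on average (median 0.96). Jchain, which links IgA into dimers, was at 10.98, 11.17, 11.13, 11.05 and 10.69 after 1 cycle, against 9.49, 9.60, 8.65, 9.04 and 9.49 in controls, a difference of 1.75 ± 0.22 (adjusted p = 3.84e-05). The secretory chaperone Mzb1 rose by 1.23, the transcription factor Irf4 by 1.16, the degradation factor Derl3 by 1.25 and the coactivator Pou2af1 by 1.14. Of 18 probe sets annotated to 1 immunoglobulin chain each, 11 were higher, none was lower and the median difference was 1.95. Such chains share sequence, so that single chains are not told apart. None of 7 genes of antibody transport and IgA switching was called, and Pigr, the epithelial receptor that carries IgA to the lumen, was at 12.26 to 12.61 after 1 cycle, against 12.47 to 12.64 in controls (-0.07).

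T and NK cell genes had a median difference of 0.74 and all 25 were higher on average, but only Cd3g and Ccl5 passed both thresholds. Cd3g, a chain of the T cell receptor complex, was at 6.51, 6.64, 7.17, 6.12 and 5.84 after 1 cycle, against 4.97, 5.19, 4.97, 5.03 and 5.09 in controls (1.41 ± 0.25, adjusted p = 0.000909). Cd3e and Cd4 stayed just under the fold threshold, with differences of 0.94 (adjusted p = 0.00252) and 0.97 (adjusted p = 0.000987). Without K3, which had the lowest mean over the 25 genes among the treated mice (5.88, against 6.02 to 6.31 in the others), 7 of the 25 were called. Stat4, which carries interleukin-12 signals to interferon gamma, rose by 1.51 (adjusted p = 0.000408) and was the only called gene of 16 in the interferon gamma axis. T helper cytokines were dim, with means over the list of 4.89 to 5.10 after 1 cycle and 4.79 to 5.03 in controls, below the array medians. None of 10 was called and their median difference was 0.03. Il17a lay at 4.86 to 5.44 after 1 cycle, against 4.88 to 5.23 in controls.

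Monocyte and macrophage genes rose in part, with 9 of 23 called and a median of 0.83. Lyz2, the lysozyme of myeloid cells, was at 10.21, 10.39, 10.80, 9.97 and 9.95 after 1 cycle, against 8.86, 9.23, 8.59, 8.28 and 8.99 in controls (1.47 ± 0.30, adjusted p = 0.00286). C1qa and C1qb, complement genes of resident macrophages, rose by 1.06 and 1.09, Itgax, the integrin CD11c of dendritic cells and macrophages, by 1.12 and Ccr2, the receptor of incoming monocytes, by 1.11. The calls of C1qa, C1qb and Ccr2 were lost without K1, in which they were highest, and that of Ccr2 also without control A5 or L1 and within the array set of these mice (adjusted p = 0.0876).

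All 15 neutrophil genes were higher on average (median 0.79), 11 of them wholly above the controls, yet only Cd177 was called. Cd177, a surface glycoprotein of neutrophils, was at 10.66, 10.17, 10.23, 10.39 and 10.05 after 1 cycle, against 7.25, 9.14, 8.28, 8.91 and 8.75 in controls, a difference of 1.83 ± 0.31 (adjusted p = 0.000703). In a fit of the 2 groups alone 4 of the 15 were called. The calprotectin gene S100a9 lay at 6.12 to 6.81 after 1 cycle, against 5.03 to 5.34 in controls and differed by 1.24 (adjusted p = 0.129). Cxcr2, the receptor that brings neutrophils into tissue, differed by 1.27 (adjusted p = 0.0648). Against acute colitis Cd177 differed by 1.03 (adjusted p = 0.0676 in limma), whereas the median over the 15 genes was -1.10. In controls Cd177 was also well above the mean over the 15 genes, which was 4.90 to 5.13. Which cells expressed Cd177 was not tested, so its call is not a measure of neutrophils.

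A pair of proteases of mucosal mast cells stood out from the other genes of that cell type. Mcpt2 was at 6.65, 7.08, 7.26, 8.68 and 5.10 after 1 cycle, against 4.34, 4.42, 4.30, 4.15 and 4.35 in controls and Mcpt1 at 5.82, 6.26, 6.50, 7.6 and 5.19 after 1 cycle, against 4.18, 4.47, 4.15, 4.27 and 4.42 in controls. Their spread was wide after 1 cycle, with K2 the highest and K3 the lowest mouse in both genes, and every treated mouse lay above the controls. The differences were 2.64 ± 0.52 and 1.98 ± 0.40 (adjusted p = 0.0022 and 0.00272). The other 11 mast cell genes were not called: Cpa3 differed by 0.47 (adjusted p = 0.129), Cma1 by -0.09 (adjusted p = 0.726) and the growth factor receptor Kit by -0.10 (adjusted p = 0.879). No eosinophil gene of 8 was called.

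Of 25 inflammatory cytokines and chemokines, Il1b and Ccl8 were called. Il1b was at 7.10, 7.66, 7.72, 7.55 and 7.54 after 1 cycle, against 5.04, 5.18, 5.24, 5.18 and 5.26 in controls, a difference of 2.33 ± 0.48 (5.04-fold, adjusted p = 0.0035). Ccl8, a monocyte chemokine, rose by 1.62. Tnf differed by 0.74 (adjusted p = 0.134) and Il6, at 3.56 to 3.85 after 1 cycle, against 3.53 to 3.56 in controls, by 0.18 (adjusted p = 0.91). Of 10 acute-phase genes 4 rose. Saa3, a serum amyloid made in inflamed epithelium and macrophages, was at 7.6, 7.87, 7.50, 7.38 and 8.18 after 1 cycle, against 5.27, 5.24, 5.15, 5.27 and 5.26 in controls (2.47 ± 0.49, adjusted p = 0.00237), and Lrg1, Hp (haptoglobin) and Steap4 rose by 1.59, 1.29 and 1.12. Lrg1 lost its call when any of 9 of the 10 mice was left out, all but K3. Vcam1, which lets leukocytes adhere to endothelium, rose by 1.05, and was under the fold threshold without K1.

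Matrix metalloproteinases were among the called genes. Mmp13, a collagenase, was at 6.71, 6.97, 7.39, 7.51 and 7.17 after 1 cycle, against 5.67, 5.51, 5.07, 5.31 and 5.29 in controls (1.78 ± 0.47, adjusted p = 0.0203), and Mmp10 and Mmp7, the stromelysin and matrilysin, rose by 1.45 and 1.16. Within the array set that holds all 10 mice, Mmp13 and Mmp10 did not pass (adjusted p = 0.0655 and 0.0887), nor did either without A5, or Mmp13 without K2. No collagen of 16 and no gene of 21 in the other matrix and fibroblast group was called, with medians of 0.13 and 0.04. Col1a1, a chain of type I collagen, was at 9.58, 9.38, 9.92, 9.58 and 9.39 after 1 cycle, against 8.82, 9.30, 9.14, 9.07 and 9.18 in controls. All 5 treated mice lay above the controls, with a difference of 0.47 (adjusted p = 0.00996), below the 2-fold threshold.

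With the 2-fold threshold fewer probe sets were lower than higher, whereas by adjusted p alone 1206 were higher and 1256 lower. Slc37a2, of the family of sugar phosphate exchangers, was at 7.32, 6.50, 7.84, 7.78 and 5.93 after 1 cycle, against 10.46, 8.93, 10.07, 8.74 and 8.96 in controls, a difference of -2.36 ± 0.46 (adjusted p = 0.002). Fxyd4, a regulator of the sodium pump, was at 6.44, 6.25, 6.26, 6.47 and 6.05 after 1 cycle, against 8.79, 7.08, 8.30, 7.80 and 8.38 in controls (-1.78 ± 0.24, adjusted p = 5.18e-05). Slc20a1, a sodium-dependent phosphate transporter, was at 9.33, 8.70, 9.67, 9.19 and 8.95 after 1 cycle, against 11.68, 10.37, 11.36, 10.21 and 10.69 in controls (-1.70 ± 0.25, adjusted p = 0.000151). In these 3 genes the controls A1 and A5 were the 2 highest or among the 3 highest. All controls lay above all treated mice, which was a condition of choice for the largest falls. Trpm6, the channel of magnesium uptake, was at 7.40, 7.62, 8.80, 8.07 and 7.16 after 1 cycle, against 9.52, 8.94, 9.90, 9.38 and 9.59 in controls (-1.66 ± 0.27, adjusted p = 0.000382). The peptide transporter Slc15a1 and the cation channel Trpv3 differed by -1.45 and -1.38, and both lost the call without K3 (adjusted p = 0.057 and 0.0845), without A1 (0.0561 and 0.0858) and without A5 (0.0534 and 0.0583). Trpv3 also lost it without J5 or L2.

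**Figure D3:**
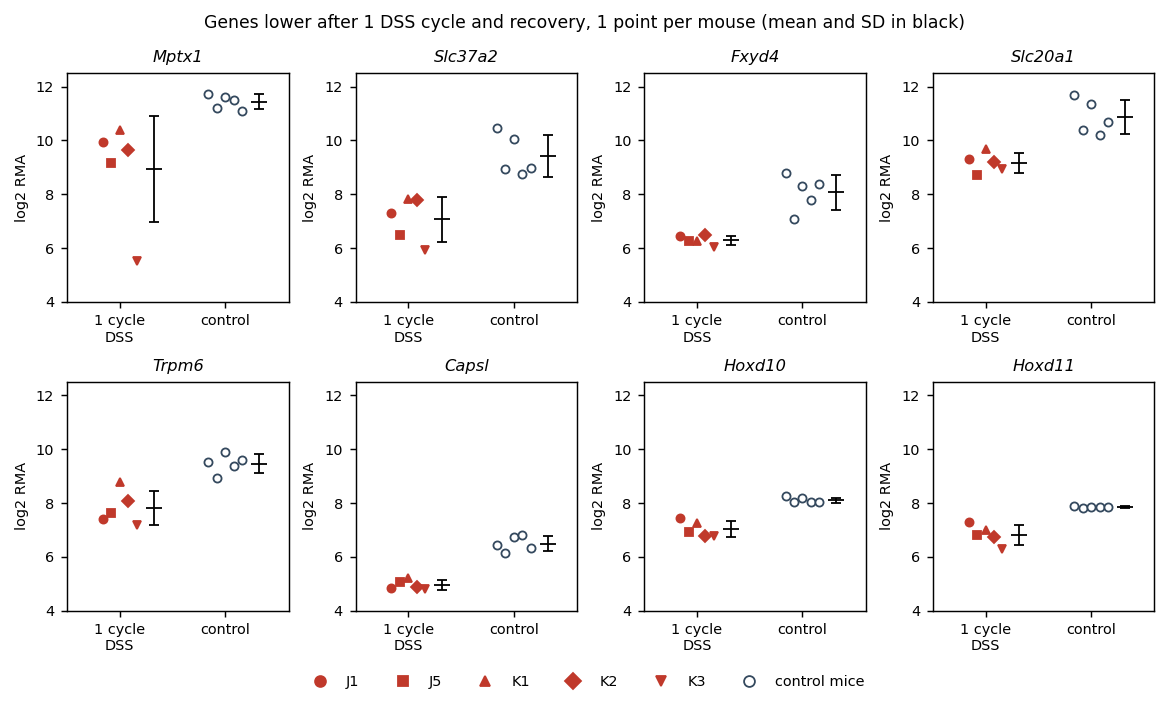
Log2 RMA expression (y axis) of 8 genes lower after 1 DSS cycle, in the 5 treated mice (red, a symbol for each mouse, left) and the 5 controls (open, right), with mean and SD in black. K3 is at 5.52 in Mptx1, far below the other treated mice, while Capsl and Fxyd4 are tight in all 5.

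Mptx1, a pentraxin of the surface epithelium, had the largest mean fall among the called probe sets. It was at 9.95, 9.16, 10.39, 9.65 and 5.52 after 1 cycle, against 11.74, 11.20, 11.63, 11.52 and 11.10 in controls, a difference of -2.50 ± 0.69 (adjusted p = 0.0252). All 5 treated mice lay below every control, again a condition of choice, and K3 lay far below the other 4. Without K3 it was -1.65 and no longer passed (adjusted p = 0.0765), and it also missed the threshold without A1, A5 or L1, in a fit of the 2 groups alone (adjusted p = 0.0672) and within the array set of these mice (adjusted p = 0.0521). Tgm3, a transglutaminase, had the same pattern, with K3 at 8.37 and the other treated mice at 9.92 to 11.40, and was not called, with a difference of -1.86 (adjusted p = 0.0643). Capsl, a calcium-binding protein related to calcyphosine, had the smallest adjusted p named here among the falls. It was at 4.82, 5.05, 5.21, 4.86 and 4.81 after 1 cycle, against 6.43, 6.15, 6.73, 6.82 and 6.32 in controls and differed by -1.54 ± 0.12 (adjusted p = 3.43e-08). Among the other called genes, Ttll6, a tubulin-modifying ligase, differed by -1.37, and Tppp3, which promotes tubulin polymerisation, by -1.26.

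No gene of 23 of xenobiotic metabolism was called (median -0.07), and 1 of 11 of butyrate oxidation and ketogenesis fell (median -0.20). That gene, Ppargc1a, the coactivator of mitochondrial biogenesis, was called in both of its probe sets, at 7.72, 7.71, 8.43, 7.46 and 7.6 after 1 cycle, against 9.24, 8.93, 9.10, 8.95 and 8.54 in controls in the one with the larger change (-1.17 ± 0.26, adjusted p = 0.00667). The cytochrome P450 gene Cyp2d12 was at 5.17 to 6.51 after 1 cycle, against 6.58 to 8.23 in controls (-1.51) and Hao2, a hydroxyacid oxidase of peroxisomes, at 8.61 to 9.5 after 1 cycle, against 9.97 to 10.49 in controls (-1.30). The call of Hao2 was lost without K3 (-1.24, adjusted p = 0.0693) and without J1, J5, A1, A2 or A5 (adjusted p = 0.0554 to 0.0793). The protease inhibitor chain Itih2 differed by -1.39, and the unnamed loci 2310079G19Rik and 2010106E10Rik differed by -1.59 and -1.53.

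Hmcn1, a large matrix protein of the fibulin family, accounted for 17 of the 66 lower probe sets. The array reads this gene with 77 probe sets, of which 76 were lower on average, with a median of -0.83 and a range of -1.31 to 0.03. The mean over the 77 was 6.03, 5.92, 6.35, 5.95 and 5.43 after 1 cycle, against 7.08, 6.33, 6.82, 6.55 and 6.63 in controls. K1 and A2 overlapped and K3 was the lowest, and only 3 of the 17 called probe sets separated the groups. Without K3, 2 of the 77 were called, without A1 6, without A2 30 and without K1 33.

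Hoxd10 and Hoxd11, posterior Hox genes that keep the positional identity of the hindgut, were lower as well. Hoxd10 was at 7.42, 6.91, 7.25, 6.79 and 6.79 after 1 cycle, against 8.24, 8.03, 8.18, 8.02 and 8.03 in controls (-1.07 ± 0.31, adjusted p = 0.0331). Hoxd11 was at 7.29, 6.81, 7.00, 6.75 and 6.28 after 1 cycle, against 7.90, 7.80, 7.87, 7.87 and 7.84 in controls (-1.03 ± 0.30, adjusted p = 0.0329). The controls were close together in both genes, and all treated mice were below them. Both lost the call without K3, with differences of -1.01 (adjusted p = 0.0747) and -0.89 (adjusted p = 0.0937), and when each of several other mice was left out. Hoxd12 differed by -0.69 (adjusted p = 0.00217), Hoxd13 by -1.19 (adjusted p = 0.25) and Hoxb13 by -1.16 (adjusted p = 0.207). Over the 12 Hox genes of groups 10 to 13 the median was -0.25 and 8 were lower, and over the 25 other Hox genes the median was 0.07, 8 were lower and none was called. In K3 the more anterior Hoxb5 was at 7.65, against 6.24 to 6.50 in the other treated mice, and Osr2 at 8.50, against 5.76 to 6.92. The part that position along the colon played in these differences was not tested.

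Several cell types showed no called gene. Among 14 smooth muscle genes all differences were negative (median -0.36, 7 wholly below the controls), and Myh11, the smooth muscle myosin, was at 11.38, 11.24, 11.18, 11.11 and 11.25 after 1 cycle, against 11.43, 11.82, 11.52, 11.77 and 11.65 in controls, a difference of -0.41 (adjusted p = 0.173). Goblet cells (15 genes, median 0.20), enteroendocrine cells (13 genes, -0.32), crypt stem cells and Wnt targets (15 genes, -0.13), proliferation (19 genes, 0.11), enteric neurons and glia (13 genes, -0.13), endothelium (10 genes, 0.18) and stratified squamous epithelium (17 genes, 0.04) had none. Mki67, a marker of cycling cells, was at 9.11 to 9.59 after 1 cycle, against 9.25 to 9.48 in controls. Among 20 genes of absorptive colonocytes only Mptx1 and Slc37a2 were called (1 of the 20 without K3), and Slc26a3, Car4 and Aqp8, which exchange chloride, hydrate carbon dioxide and conduct water at the colonic surface, differed by -0.71, -0.62 and -0.85 without passing (adjusted p = 0.0622, 0.0629 and 0.16). Insl5, a peptide hormone of distal colonic L cells, was at 9.58, 8.92, 9.76, 9.40 and 7.61 after 1 cycle, against 10.26, 9.88, 10.11, 9.95 and 10.12 in controls and just missed the threshold with a difference of -1.01 (adjusted p = 0.0595), K3 again being the lowest. Clu, the only called gene of 10 of the regenerative epithelium, rose by 1.06 (adjusted p = 0.0366) and lost its call when any of 8 of the 10 mice was left out and within the array set of these mice (adjusted p = 0.0687).

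**Figure D4:**
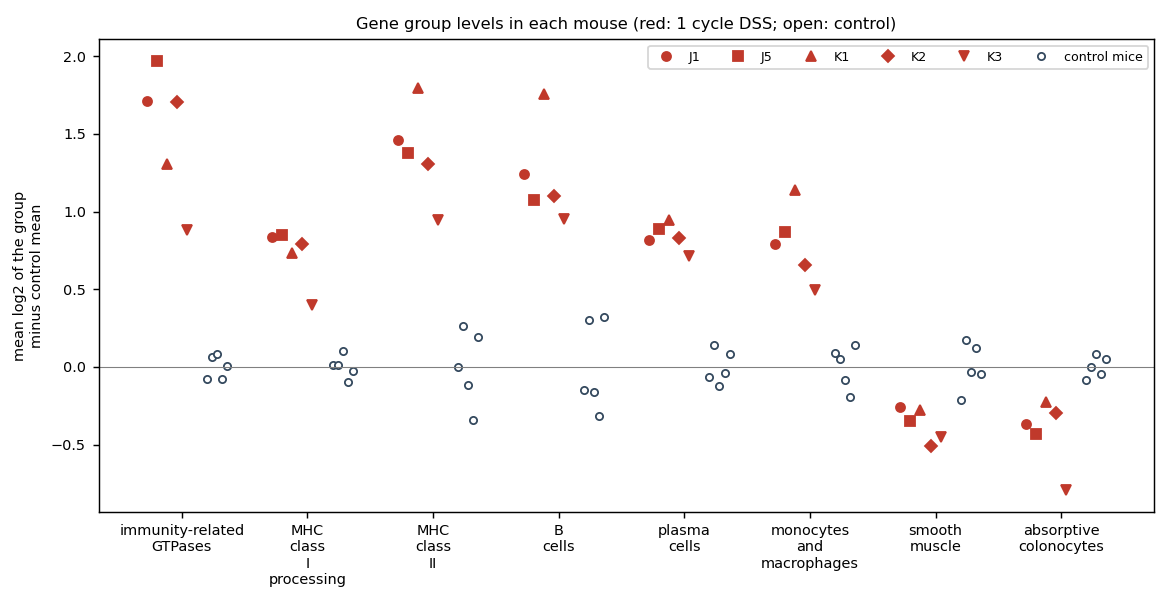
Mean log2 level of 8 gene groups in each mouse, relative to the control mean of the group (y axis), with a red symbol for each 1-cycle mouse (left in each column) and open circles for controls (right). K1 is highest in MHC class II, B cells and macrophages, and K3 is lowest in every group but smooth muscle, where K2 is.

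The 5 treated mice differed among themselves across these genes. Because the probe sets were called from the same values, the following is a description. K1 was the highest of the 5 in 187 of the 309 higher probe sets and K3 the lowest in 198. The median rise over the 309 was 1.79 in K1, 1.52 in J5, 1.46 in J1, 1.35 in K2 and 1.09 in K3. In the 66 lower probe sets K3 was the lowest in 51 and K1 the highest in 50. The mean over B cell genes was 7.03 to 7.84 in the 1-cycle mice, against 5.76 to 6.40 in the control mice, and K1 gave the upper end. For immunity-related GTPases J5 was instead the highest, and Reg3b and Reg3g were lowest in K1. Correlation between arrays (Pearson's r over all probe sets) was 0.982 to 0.991 among the 1-cycle mice, 0.983 to 0.992 among controls and 0.968 to 0.986 between the groups.

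Acute colitis ended at the same 7 days of DSS without the recovery weeks, and its direct comparison with 1 cycle does not use the controls. After 1 cycle 177 probe sets were higher than in acute colitis (0.498% of those tested) and 70 were lower (0.197%). Acute colitis had 4 arrays, of which only 2 belonged to the same array set as the 1-cycle mice. Within that set the counts were 68 and 5, and in a fit of these 2 groups alone 102 and 5, so that most calls of lower genes were lost in both. Over all probe sets the median difference was -0.04.

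Genes of the antibody response were higher after 1 cycle than in acute colitis. Jchain was at 10.98, 11.17, 11.13, 11.05 and 10.69 after 1 cycle, against 7.18, 8.60, 7.44 and 7.87 in acute colitis, a difference of 3.23 ± 0.24 (adjusted p = 2.71e-09). All acute mice lay below every control, and the mice in recovery lay above both. Mzb1, Irf4, Derl3 and Pou2af1 were higher by 1.39, 1.31, 1.31 and 1.20. Of 23 B cell genes 11 were called higher, Ms4a1 among them with 7.33 ± 0.43 after 1 cycle and 5.44 ± 0.69 in acute colitis (SD, n = 5 and 4). Of the class II genes only H2-Eb2 (1.70) and H2-Ob (1.62) were called.

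Smooth muscle genes were higher by a median of 1.18, and 8 of 14 were called. Mptx1 was higher by 3.95 (adjusted p = 0.00175), at 9.95, 9.16, 10.39, 9.65 and 5.52 after 1 cycle, against 4.22, 4.36, 6.30 and 5.07 in acute colitis. K3 lay within the range of the acute arrays and the other 4 treated mice well above it. The aspartic protease Ctse and the colonic gene Nxpe2 were higher by 2.47 and 2.50, and neither was called against controls (-0.30 and -0.39). Position genes varied among the acute mice too. In B2, B3, B4 and C3, Hoxd13 was at 5.88, 6.36, 8.56 and 5.99 and Slc10a2 at 7.61, 7.90, 5.88 and 5.90. B2 and B3 are the acute arrays that share the array set of the 1-cycle mice. The part that position along the gut played in the differences from acute colitis was not tested.

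Inflammatory genes were lower after 1 cycle than in acute colitis in 9 of 25 cytokines and chemokines and in 4 of 15 neutrophil genes. Lrg1 was at 7.47, 7.53, 6.92, 7.32 and 6.73 after 1 cycle, against 8.27, 10.15, 10.44 and 10.84 in acute colitis, a difference of -2.73 ± 0.50 (adjusted p = 0.00166). Saa3, Lcn2, Nos2, Ido1 and Mmp13 were lower with differences of -1.96, -1.84, -1.79, -1.74 and -2.11, while each stayed above the controls. Il6 was lower with a difference of -2.10 (adjusted p = 0.0155), with acute values of 3.74, 8.91, 5.75 and 4.91. Acute mouse B2 lay within the range of the 1-cycle mice in Il6, in Nos2 (7.58) and in Ido1 (8.70). It lay above that range in Lrg1, Saa3, Lcn2 and Mmp13. Reg3b and Reg3g did not pass, with differences of 0.11 ± 0.84 and -0.07 ± 0.77. Acute Reg3b values ranged widely, from 6.55 to 12.89, and enclosed those after 1 cycle.

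**Figure D5:**
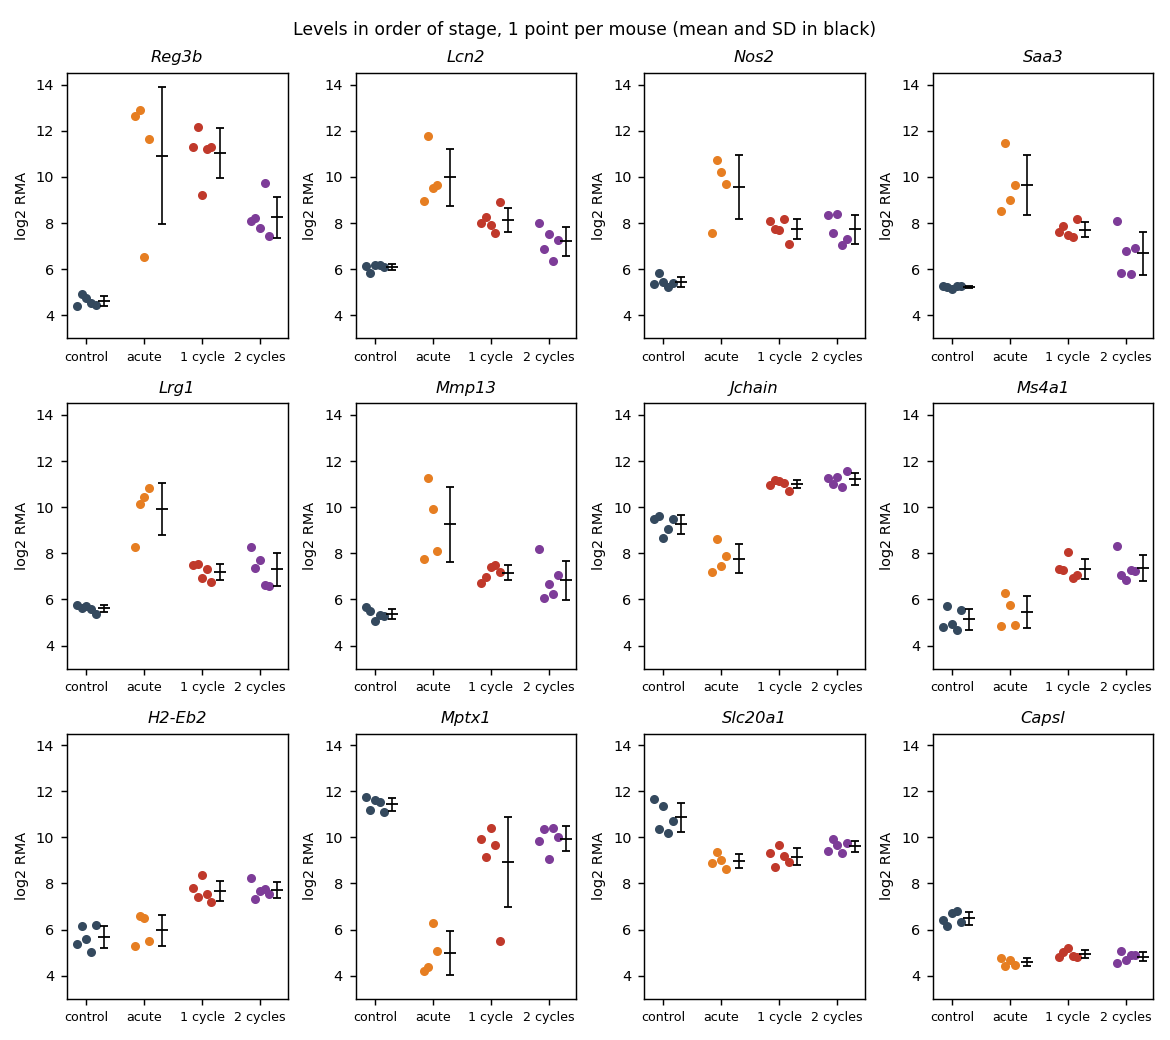
Log2 RMA expression (y axis) of 12 genes in controls, acute colitis, after 1 cycle and after 2 cycles (x axis, 5, 4, 5 and 5 mice), with mean and SD in black. Lrg1, Saa3 and Mmp13 peak in acute colitis, Jchain and Ms4a1 are highest after 1 and 2 cycles, and Slc20a1 and Capsl are low at all stages of DSS.

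Mice after 2 cycles had 1 more round of DSS and recovery. No probe set was called between 1 and 2 cycles in either direction (0% higher and 0% lower), 8 passed the adjusted p alone, and 2056 had an unadjusted p under 0.05 in limma. Array weights and a fit of these 2 groups alone each gave 2 higher probe sets and none lower. Reg3b was at 11.31, 12.16, 9.22, 11.21 and 11.32 after 1 cycle, against 8.10, 8.22, 7.78, 9.73 and 7.43 after 2 cycles. Its difference of 2.79 ± 0.79 did not pass (adjusted p = 0.65), although only K1 overlapped. Median differences of the MHC class II and B cell genes were -0.04 and -0.05. Of the 5 arrays after 2 cycles 3 belonged to the other array set.

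A few called probe sets were in none of the gene lists, which does not show that they are unrelated to these groups. A probe set annotated to Adck1 was at 8.62, 9.72, 7.37, 8.34 and 8.32 after 1 cycle, against 4.48, 4.75, 4.41, 4.56 and 5.67 in controls. It rose by 3.70 ± 0.41, whereas the other probe set of this gene differed by -0.07. In acute colitis it was at 3.35, 4.20, 3.78 and 3.10, below every control, an order also seen in Jchain. Whether this probe set reads Adck1 was not tested. Snord118, a small nucleolar RNA read by 2 probe sets with equal values, rose by 2.56 ± 0.27. Khdc1a was at 4.90 to 7.87 after 1 cycle, against 3.12 to 4.06 in controls, and rose by 2.64. BC023105 was at 5.03 to 8.11 after 1 cycle, against 3.91 to 4.19 in controls, and rose by 2.42. In BC023105 J5 was the highest and K3 the lowest of the treated mice, as in Iigp1. Of 305 probe sets of miRNA genes none was called.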

How the data were processed

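Colon RNA of single mice was hybridised to Affymetrix Mouse Gene 1.0 ST arrays. Per the labels and methods, the authors summarised the raw data by robust multichip average (RMA, in R 2.12.2) and deposited 1 log2 value per probe set and mouse, which tends to compress small differences of dim probe sets. No depth exists for arrays, and the 5 mice of each group limit the precision. The deposited log2 values were used as they stand. Of 35511 probe sets, 21789 have 1 gene symbol in the platform annotation, 1621 several and 12101 none, and only those with 1 symbol were named. No sample column was left out.

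One mean per group was fitted over all 29 arrays with limma 3.58.1 in R 4.3.3 (23 residual degrees of freedom), with Benjamini-Hochberg adjustment, adjusted p under 0.05 and fold above 2. Errors are the SE of the fit, or the SD where so named. Named genes were the 15 largest non-overlapping rises and falls among called probe sets with 1 symbol, immunoglobulin chains left out, up to 4 genes with the largest difference in each of 55 gene lists (741 genes, 665 with a probe set of 1 symbol), and defining members of the lists. Other list members and the genes of position along the gut were named after their values were seen. For the 15 largest rises and falls, non-overlap of the groups was a condition of choice and not a finding. Genes of a list are represented by their brightest probe set. Gene lists, members and tests were chosen with earlier results of these data known, so list counts are descriptions and no set test was run. What the letters in the labels (J and K, A and L) mark is not given in the sources used here. The p-values measure only the spread between mice, which the fit pooled over all 29 arrays. A wide spread among the acute mice therefore enters the comparison of 1 cycle with controls. The SD of Il6, for example, was 0.12 after 1 cycle, 0.02 in controls and 2.21 in acute colitis. Promoters came from RefSeq (GRCm38.p6), in which 144 of the 208 genes called higher had an entry. The fit was tested on simulated data. Alternatives are given in the closing section.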

Additional observations from a re-analysis of the deposited data

Results flagged for a closer look

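In each of the named genes, the 1-cycle and the control mice were searched for 1 mouse far from the other 4 (by Dixon's ratio). This picked out 11 of 208 gene and group pairs, and chance alone picks out about 1 in 20. K3 was low in Tap1 at 8.35 (others 9.17 to 9.28), Psmb8 at 7.38 (8.03 to 8.28), Psmb9 at 7.87 (8.44 to 8.58), Zbp1 at 7.99 (8.56 to 8.72) and Mptx1 at 5.52 (9.16 to 10.39). K1 was high in Cr2 at 7.52 (6.61 to 6.83), Cxcr5 at 6.90 (5.95 to 6.20) and Ppargc1a at 8.43 (7.46 to 7.72), and J1 was low in Il1b at 7.10 (7.54 to 7.72). Among controls, A2 was low in Lcn2 at 5.86 (6.11 to 6.18) and L2 high in Adck1 at 5.67 (4.41 to 4.75).

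The change under DSS differed between the recovery after 1 cycle and acute colitis, by the direct test in limma, in 25 of the named genes. Differences (1 cycle minus acute, log2) were positive for Jchain at 3.23, Mzb1 at 1.39, Irf4 at 1.31, Derl3 at 1.31, Pou2af1 at 1.20, Ms4a1 at 1.88, Cd79a at 1.79, Cd79b at 1.69, Cr2 at 1.71, Cxcr5 at 1.07, H2-Eb2 at 1.70, H2-Ob at 1.62, Adck1 at 4.87 (1 of its 2 probe sets, the other of which did not rise against controls), Mptx1 at 3.95 and Cyp2d12 at 1.37. They were negative for Lrg1 at -2.73, Cxcl10 at -2.33, Mmp13 at -2.11, Saa3 at -1.96, Lcn2 at -1.84, Nos2 at -1.79, Gbp5 at -1.75, Ido1 at -1.74, Mmp10 at -1.46 and Hp at -1.34. Adjusted p-values ran between 2.71e-09 (Jchain) and 0.0391 (Ido1). The negative differences depended on the fit. Of all 70 probe sets lower than in acute colitis, 5 stayed called with the 2 groups alone and 2 within 1 array set.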

How the results depend on the processing

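The 309 higher probe sets changed little. Under 8 settings other than the fold threshold there were 277 to 334, and with 1 mouse left out 269 to 337. These settings were the 2 groups alone, arrays of 1 set, the label letter as a random block and array weights. The rest were another prior, a dim filter, a second quantile normalization and centring on medians. Adjustment over probe sets with 1 symbol alone gave 232. Of the 309, 222 have 1 symbol, and all 222 stayed called there. With fold above 1.5 there were 667. Lower probe sets numbered 59 to 84 under those settings, 322 with fold above 1.5 and 31 to 118 with 1 mouse left out. Against acute colitis the 177 higher became 102 with the 2 groups alone, 68 within 1 array set and 456 with fold above 1.5 (139 to 257 with 1 mouse left out), and the 70 lower became 5, 5 and 251 (29 without acute B3, 34 without J1, 45 without acute C3, 201 without acute B2). Against 2 cycles, the 0 higher became 2 (2 groups alone), 1 (random block), 2 (array weights), 8 (fold above 1.5) and 0 to 1 (1 mouse left out), and the 0 lower 0 to 1 (1 mouse left out). The letters gave a block correlation of -0.0683. No paired analysis was possible because the groups share no replicate numbers. Of 103 called named genes, 81 stayed called in all 20 alternatives, and no sign was reversed. Leaving K1 out left none of the complement or regenerative genes called. The gene list counts without K1 or K3 were added after seeing the data. The cause of these changes was not tested. Dim genes such as Ifng and Il6 are limited by the array's background.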

Other observations

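Receptors and adhesion molecules of leukocytes formed a further set of called genes. Among 10 genes of leukocyte homing and adhesion 4 rose and 9 lay wholly above the controls (median 0.82). Itgb2, the common chain of the leukocyte integrins, was at 7.50, 7.54, 7.88, 7.43 and 7.29 after 1 cycle, against 6.25, 6.32, 6.04, 5.96 and 6.32 in controls. Its partner Itgal rose by 1.14 and the selectin ligand Selplg by 1.20. Of 4 Fc receptors, which bind antibody on myeloid and B cells, the inhibitory Fcgr2b and the activating Fcgr4 rose by 1.16 and 1.68.

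Of 9 complement genes, C4b and C3ar1, the receptor of the C3a fragment, rose by 1.06 and 1.10, and neither was called without K1. No gene of the unfolded protein response was called among 11. Hspa5, the chaperone BiP of the endoplasmic reticulum, was at 10.90, 10.88, 10.71, 10.84 and 11.15 after 1 cycle, against 10.40, 10.52, 10.37, 10.46 and 10.55 in controls, with all treated mice above all controls and a difference of 0.44 (adjusted p = 0.00629).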
